A study of Mus musculus with 3 samples.

Results

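The genes described here are those of collagens, laminins, nidogens and integrins, measured in mouse ES cells with and without Nr0b1 (also called Dax1), an orphan nuclear receptor. They were taken from the array annotation by name: every probe whose gene name is a collagen alpha chain (Col, a number, a, a number), begins with Lama, Lamb or Lamc and a number, is Nid1 or Nid2, or begins with Itga or Itgb. This gave 88 gene names on 134 probes and 143 spots, out of 35019 gene names or identifiers on 55681 probes. RNA of 3 groups was hybridised, 3 arrays each. Nr0b1 KO/Y cells (labelled Dax1 KO/Y) are from lines established from colonies after the deletion, and their time in culture is not given in the sources used here. Nr0b1 fl-/Y+Tx cells (labelled Dax1 flox/Y + Cre 4days) were treated with 4-hydroxy tamoxifen (Tx), which activates the Cre recombinase, for 4 days. Nr0b1 fl-/Y−Tx cells (labelled Dax1 flox/Y) carried the floxed gene without Tx and served as the control. All 3 come from EB5 cells, a male line derived from E14tg2a ES cells, and share the MerCreMer and Egfp transgenes introduced with piggyBac vectors, while the excised region holds the second exon of Nr0b1. Deletion and exposure to Tx therefore change together between −Tx cells and either other group, the exposure of the KO/Y lines being an earlier one. KO/Y and +Tx cells were both treated to delete the gene, and differ in the time since Tx. They also differ in that the KO/Y lines were isolated as colonies and genotyped as deleted. No such selection is described for the +Tx cells, and Nr0b1 was still well above background on their 3 arrays. These differences cannot be told apart between KO/Y and +Tx cells. The study grew its ES cells either on mitomycin-treated fibroblasts of mouse embryos or without them, and the sources do not say which applies to the arrays or which line each array holds.

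A basement membrane is a thin sheet of matrix on which epithelial and endodermal cells sit. Laminins, trimers of an alpha, a beta and a gamma chain, polymerise at the cell surface, type IV collagen forms a second network, and nidogens link the networks. In the early mouse embryo the primitive endoderm and its parietal derivative deposit such a sheet, rich in laminin made of alpha1, beta1 and gamma1 chains and in type IV collagen made of alpha1 and alpha2 chains. Fibrillar collagens, above all types I, III and V, form the rope-like fibres of connective tissue and are made mainly by fibroblasts. Integrins are receptors of an alpha and a beta chain that bind these matrices, with the alpha chain setting much of the ligand choice.

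Promoter sequence from RefSeq (GRCm38.p6) was matched by symbol for 63 of the 88 genes, as windows from 250 bases before to 50 after an annotated start. Members without an entry include Lama1, Lamc1, Nid2 and Col1a1. Col4a1 and Col4a2, the pair that changed together, lie head to head on chromosome 8, and their annotated 5′ ends overlap by 22 bases. The stretch their windows share is printed first because a short piece of DNA holds both starts. The 250 bases before the starts of further genes follow. First come 2 laminin beta chains higher in KO/Y than in −Tx cells (Lamb1, and the more upstream of 2 Lamb3 windows). Then come a laminin alpha chain lower in KO/Y than in −Tx cells (Lama5) and a fibrillar collagen (Col1a2). The differences of Lamb1 and Lama5 were under 2-fold. All stretches are 5′ to 3′ on the strand named, and capitals mark the letters searched, on both strands. GATA letters are AGATAA, with TGATAA as a second form and the same forms ending in G. SOX letters are ACAAT and also the form ACAAAG. Sp1 letters are GGGCGG, and the last motif is CCAAT, which the SOX letters can overlap on the other strand.
Col4a1 and Col4a2, chr8:11312777-11312854, plus strand: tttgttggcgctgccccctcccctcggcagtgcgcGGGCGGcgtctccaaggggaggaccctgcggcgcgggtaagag
Lamb1, chr12:31265043-31265292, plus strand: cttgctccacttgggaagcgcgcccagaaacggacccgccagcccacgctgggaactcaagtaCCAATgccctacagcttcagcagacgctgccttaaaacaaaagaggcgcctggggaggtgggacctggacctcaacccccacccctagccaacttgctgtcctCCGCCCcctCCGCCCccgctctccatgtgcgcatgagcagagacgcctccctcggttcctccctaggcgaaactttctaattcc
Lamb3, chr1:193301744-193301993, plus strand: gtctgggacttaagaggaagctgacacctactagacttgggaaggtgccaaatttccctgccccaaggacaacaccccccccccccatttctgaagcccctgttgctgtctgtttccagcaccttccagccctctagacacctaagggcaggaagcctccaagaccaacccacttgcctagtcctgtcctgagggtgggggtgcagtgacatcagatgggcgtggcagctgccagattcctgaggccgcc
Lama5, chr2:180225860-180226109, minus strand: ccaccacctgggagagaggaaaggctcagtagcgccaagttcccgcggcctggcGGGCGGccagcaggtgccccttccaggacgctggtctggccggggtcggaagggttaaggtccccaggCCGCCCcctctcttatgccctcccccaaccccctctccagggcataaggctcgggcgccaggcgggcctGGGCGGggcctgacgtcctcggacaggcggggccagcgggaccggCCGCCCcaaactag
Col1a2, chr6:4505368-4505617, plus strand: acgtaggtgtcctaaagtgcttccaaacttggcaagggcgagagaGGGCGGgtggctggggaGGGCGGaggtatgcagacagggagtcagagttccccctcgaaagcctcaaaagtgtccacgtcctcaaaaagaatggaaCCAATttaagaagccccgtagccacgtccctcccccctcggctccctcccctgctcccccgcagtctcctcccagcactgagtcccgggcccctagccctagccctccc

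The shared stretch of Col4a1 and Col4a2 is 78 bases long with 73.1% G and C, and holds 1 set of Sp1 letters. Lamb1 and Col1a2 each hold 2 sets of Sp1 letters and 1 CCAAT, Lama5 holds 4 sets of Sp1 letters, and the Lamb3 stretch holds none of the letters. GATA letters were in 1 of 16 windows of basement membrane genes (6.25%, the Col4a6 window), in 3 of 8 windows of fibrillar collagens (37.5%) and in 29.8% of the 32851 promoter windows. SOX letters were in 1 of the 16 basement membrane windows (6.25%), 1 of the 8 fibrillar windows (12.5%) and 42.9% of all windows. Sp1 letters were in 10 of 16 (62.5%), 6 of 8 (75%) and 35.7%, and CCAAT in 7 of 16 (43.8%), 3 of 8 (37.5%) and 37.4%. These counts describe letters in short windows only.

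Levels are log2 intensities relative to the 75th percentile of their own array, so a level of 0 is the intensity at that percentile. A level depends on the probe and is compared only between arrays. Nr0b1 itself averaged -6.26 in KO/Y cells, not well above background on any array, -2.55 in +Tx cells and 4.10 in −Tx cells, which makes the drop in KO/Y at least 322-fold. Between 51.8% and 58.4% of probes were well above background per array. Arrays came on 2 slides. The 3 −Tx arrays and 1 +Tx array shared a slide, and the 3 KO/Y arrays and 2 +Tx arrays the other. With slide as a term of the model, or on the arrays of 1 slide, a value for +Tx against −Tx is that of this 1 +Tx array. A value for KO/Y against −Tx with slide as a term rests on the +Tx arrays of both slides, and so on that array too. In RNA of whole cultures, more cells that express a gene cannot be told apart from more RNA per cell, which holds for every value below.

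Of the 88 genes, 66 had a probe well above background on the 3 arrays of some group and could be tested. For 64 of them this held on all 9 arrays, the exceptions being Col25a1 and Col8a2. A gene is called where it differed over 2-fold with an adjusted p under 0.05. In KO/Y cells against −Tx cells, 4 members were called higher, all of them genes of the basement membrane (Lama1, Col4a1, Lamb3 and Col4a2), beside 4.72% of all 22441 genes, and 1 was called lower, the integrin chain Itgb7, beside 2.84%. In +Tx cells against −Tx cells, limma called 0 members in either direction, beside 1.75% of all genes called higher and 0.758% lower, since none reached 2-fold: the values lay between -0.83 and 0.92 on the log2 scale, while 37 members were higher and 6 lower at an unadjusted p under 0.05, beside 16.4% and 22.8% of all genes, and an alternative called the NIA-like variance here, which gives a gene the larger of its own variance and that of 500 genes of like level, also called 0. In KO/Y cells against +Tx cells, 3 members were called higher (Lama1, Col4a1 and Col4a2), beside 2.37%, and 0 lower, beside 1.05%, with 8 lower at an unadjusted p under 0.05, beside 20% of all genes, and 0 by the NIA-like variance.

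Most differences among the members were smaller than 2-fold. By the adjusted p alone, 42 of the 66 were higher in KO/Y than in −Tx cells, beside 20.5% of all genes, and 7 were lower, beside 26.4%. For +Tx against −Tx the counts were 28 higher, beside 11.9%, and 5 lower, beside 14.7%, and for KO/Y against +Tx they were 18 higher, beside 12.1%, and 7 lower, beside 14.1%. The median log2 fold change of the tested members was 0.47, 0.29 and 0.16 in these comparisons, against -0.06, -0.06 and 0.01 over all genes. With slide as a term, fewer members and fewer of all genes passed the adjusted p. The values for +Tx against −Tx are then those of 1 +Tx array, on which those for KO/Y against −Tx also rest. For KO/Y against −Tx 17 members were higher, beside 9.57% of all genes, and 3 lower, beside 12.2%. For +Tx against −Tx 9 were higher, beside 4.75%, and 2 lower, beside 5.16%, and for KO/Y against +Tx 16 were higher, beside 9.14%, and 5 lower, beside 11.1%. The called counts for KO/Y against −Tx were then 6 higher, beside 4.33%, and 1 lower, beside 2.79%, with Col20a1 and Col24a1 added to the 4 genes above. For +Tx against −Tx 0 were called in either direction, beside 1.69% and 0.753%, and for KO/Y against +Tx 3 were called higher, beside 2.34%, and 0 lower, beside 1.03%.

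The 17 genes that were higher in KO/Y than in −Tx cells at the adjusted p with slide as a term were Lama1, Lama4, Lamb3, Col4a1 and Col4a2 of the basement membrane, the fibrillar Col3a1 and Col24a1, the other collagens Col6a1, Col6a2, Col6a3, Col9a2, Col16a1, Col20a1 and Col23a1, the integrin chains Itgav and Itga8, and Itgbl1. The 3 lower ones were Nid2, Itgb7 and Itgb3bp. In +Tx against −Tx cells the 9 higher ones were Lamb3, Col4a1, Col7a1, Col9a2, Col20a1, Col24a1, Itgav, Itga7 and Itgbl1, and the 2 lower ones Itgb7 and Itgb3bp. Every other member past the adjusted p against −Tx cells without slide had an adjusted p over 0.05 with it. The values of Itga3, Itga11 and Col8a2 for KO/Y against −Tx were then -0.40, 0.14 and -0.33, and those of Itga8 and Col6a3 for +Tx against −Tx 0.43 and 0.21. For KO/Y against +Tx the adjusted p of Col1a2, Col2a1, Col7a1, Col16a1 and Lamc1 was over 0.05 with slide as a term, and that of Col24a1 under it.

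**Figure D1:**
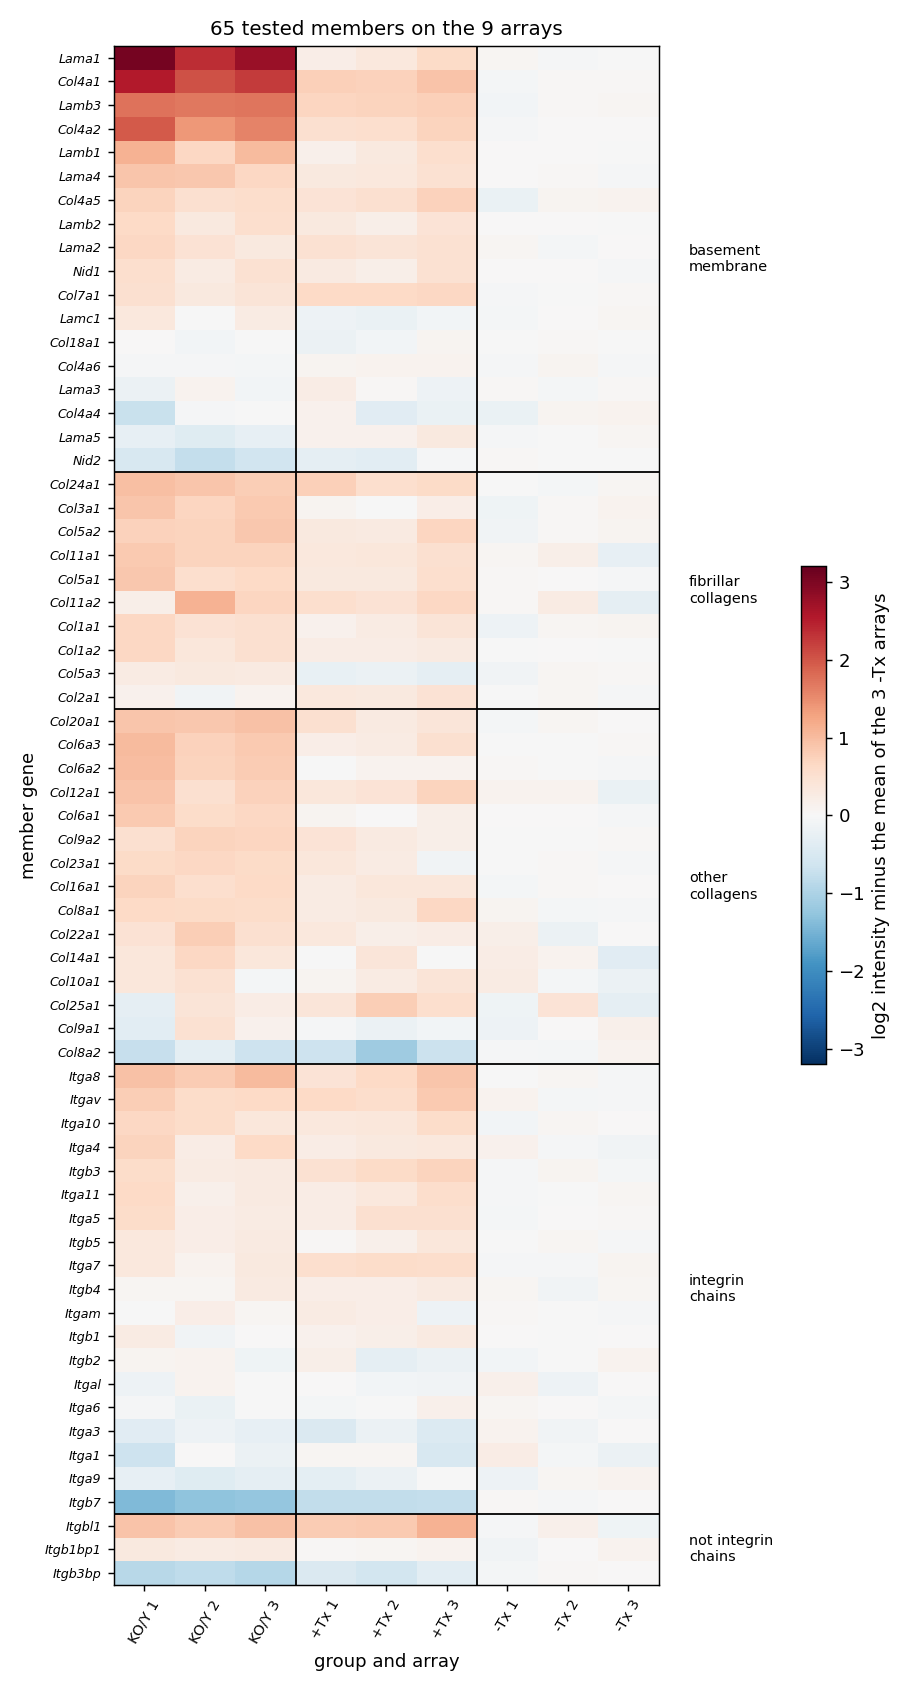
Each row is 1 of 65 of the 66 tested members and each column 1 array (KO/Y, +Tx and −Tx, 3 each), and the colour is the log2 intensity minus the mean of the 3 −Tx arrays of that gene. Lama1, Col4a1, Lamb3 and Col4a2, the top rows, are darkest red in the 3 KO/Y arrays, Itgb7 is the darkest blue row there, and most fibrillar and other collagens are pale red in KO/Y.

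The largest difference among the members was that of Lama1, the laminin alpha1 chain of the early embryonic basement membrane, read by a probe at chr17:68171924-68171983 (mm9, plus strand). Its levels were 5.27, 4.57 and 4.99 in KO/Y cells, 2.45, 2.56 and 2.83 in +Tx cells, and 2.28, 2.18 and 2.21 in −Tx cells. The KO/Y arrays lay far above both others, and the +Tx arrays just above −Tx. Lama1 rose 6.6-fold in KO/Y cells against −Tx cells (log2 fold change 2.72 ± 0.17, SE, adjusted p = 5.65e-06) and 5.04-fold against +Tx cells (2.33, adjusted p = 4.23e-05). For +Tx against −Tx the value was 0.39 with an adjusted p of 0.123. On the slide that holds KO/Y and +Tx arrays alone the value was 2.25 (adjusted p = 0.00266).

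Col4a1 and Col4a2 encode the 2 chains of the widespread type IV collagen trimer. Their probes lie at chr8:11199009-11199068 (minus strand) and chr8:11448840-11448899 (plus strand) on mm9. Col4a1, printed on 10 spots, was at 3.86, 3.38 and 3.57 in KO/Y cells, 2.10, 2.07 and 2.23 in +Tx cells, and 1.26, 1.36 and 1.37 in −Tx cells. Col4a2 was at 3.86, 3.27 and 3.47 in KO/Y cells, 2.41, 2.43 and 2.59 in +Tx cells, and 1.86, 1.91 and 1.91 in −Tx cells. Both genes formed 3 separate steps with no overlap between groups, and KO/Y array 1 was the highest and KO/Y array 2 the lowest of the KO/Y arrays for both, as for Lama1. In KO/Y against −Tx cells Col4a1 rose 4.84-fold (2.27 ± 0.12, adjusted p = 1.79e-06) and Col4a2 3.12-fold (1.64 ± 0.14, adjusted p = 2.71e-05). Against +Tx cells they rose 2.77-fold (adjusted p = 6.83e-05) and 2.07-fold (adjusted p = 0.000806), and without KO/Y array 1 the value for Col4a2 was 0.89, under 2-fold (adjusted p = 0.000739). In +Tx against −Tx cells Col4a1 was higher by 0.81 (adjusted p = 0.00177) and Col4a2 by 0.59 (adjusted p = 0.0141), both short of 2-fold. The +Tx value of Col4a2 with slide as a term was 0.52 (adjusted p = 0.144).

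The other type IV chains were not called. Col4a5, which together with Col4a6 forms another head-to-head pair, was higher in KO/Y than in −Tx cells by 0.60 (adjusted p = 0.00234) and in +Tx than in −Tx cells by 0.57 (adjusted p = 0.00749), with 0.03 between KO/Y and +Tx. Col4a6 was at -0.04 for KO/Y against −Tx (adjusted p = 0.618), 0.11 for +Tx against −Tx and -0.14 for KO/Y against +Tx (adjusted p = 0.105). Col4a4 was at -0.26 (adjusted p = 0.351) on its brightest probe, and Col4a3 was not above background on any array.

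**Figure D2:**
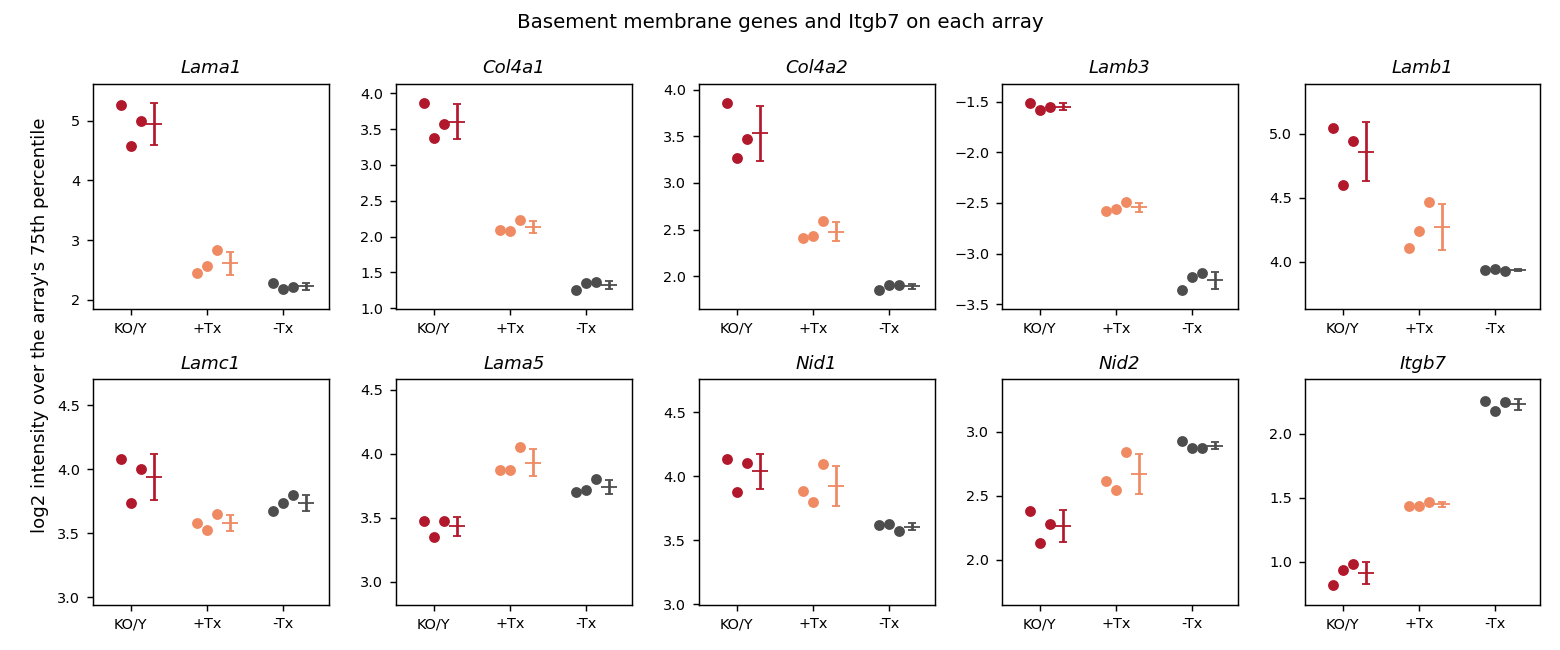
Points are single arrays, KO/Y, +Tx and −Tx from left to right, with the mean and SD of the 3 arrays beside them, and the vertical axis is the log2 intensity over the 75th percentile of the array, with its own range for each gene. In Lama1, Col4a1, Col4a2 and Lamb3 the KO/Y arrays lie above all others, those of Lama5, Nid2 and Itgb7 lie below, and Lamc1 overlaps between KO/Y and −Tx.

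Among the laminin beta chains, Lamb3 (probe at chr1:195170009-195170068, mm9), the beta3 chain, known from an epithelial laminin that also holds the alpha3 chain, was at -1.52, -1.58 and -1.55 in KO/Y cells, -2.58, -2.56 and -2.49 in +Tx cells, and -3.36, -3.23 and -3.19 in −Tx cells. None of the 3 groups overlapped. Lamb3 rose 3.28-fold in KO/Y against −Tx cells (1.71 ± 0.06, adjusted p = 2.66e-07), and it was 1.99-fold higher than in +Tx cells, just short of a call (adjusted p = 2.3e-05). It is a dim gene, and with the normexp background correction, which adds an offset to every signal, its value against −Tx was 0.78. For its alpha partner Lama3 the difference between KO/Y and −Tx cells was -0.06 on the brighter and -0.67 on the dimmer probe.

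Lamb1, the beta1 chain that partners Lama1, was at 5.04, 4.60 and 4.94 in KO/Y cells, 4.11, 4.24 and 4.46 in +Tx cells, and 3.94, 3.95 and 3.93 in −Tx cells. It was higher in KO/Y than in −Tx cells by 0.92 (adjusted p = 0.000437), not called at 2-fold, although quantile normalization put it at 1.03 and leaving out KO/Y array 2 at 1.05. Its value with slide as a term was 0.68 (adjusted p = 0.0627). Lamc1, the common gamma1 chain, was at 4.08, 3.73 and 4.00 in KO/Y cells, 3.58, 3.52 and 3.65 in +Tx cells, and 3.67, 3.74 and 3.80 in −Tx cells, with KO/Y and −Tx overlapping. The difference was 0.20 between KO/Y and −Tx (adjusted p = 0.112) and 0.36 between KO/Y and +Tx (adjusted p = 0.0248). The 3 chains of the embryonic laminin thus differed in size, from 2.72 for Lama1 over 0.92 for Lamb1 to 0.20 for Lamc1.

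Lama5, the alpha5 chain of laminins that support ES cells in culture, had the opposite sign to Lama1 for KO/Y against either other group. For +Tx against −Tx cells the sign was that of Lama1, with 0.19 for Lama5 (adjusted p = 0.0922). It was at 3.48, 3.35 and 3.47 in KO/Y cells, 3.87, 3.87 and 4.05 in +Tx cells, and 3.70, 3.72 and 3.80 in −Tx cells. KO/Y was the lowest group with no overlap, lower by 0.31 than −Tx (adjusted p = 0.00865) and by 0.50 than +Tx (adjusted p = 0.0017), with an adjusted p of 0.0794 against −Tx where slide was a term. Lama4, found in vessel and muscle basement membranes, was higher in KO/Y than in −Tx cells by 0.81 (adjusted p = 7.32e-05), Lamb2 by 0.50 (adjusted p = 0.00254) and Lama2, the alpha chain of muscle, by 0.47 (adjusted p = 0.00265). Lamc3 could not be tested.

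The 2 nidogens had values of opposite sign for KO/Y against −Tx cells. Nid1 was at 4.13, 3.88 and 4.11 in KO/Y cells, 3.88, 3.80 and 4.10 in +Tx cells, and 3.62, 3.63 and 3.58 in −Tx cells, higher in KO/Y than in −Tx cells by 0.43 (adjusted p = 0.0061). Its 3 probes gave values of 0.41 to 0.49, and with slide as a term its value was 0.37 (adjusted p = 0.204). Nid2 was at 2.38, 2.13 and 2.28 in KO/Y cells, 2.61, 2.54 and 2.84 in +Tx cells, and 2.92, 2.88 and 2.87 in −Tx cells, lower in KO/Y than in −Tx cells by 0.63 (adjusted p = 0.000703) and than in +Tx cells by 0.40 (adjusted p = 0.0142). Neither reached 2-fold. Col18a1, the core of a basement membrane heparan sulphate proteoglycan and the source of endostatin, was at 5.22, 5.12 and 5.20 in KO/Y cells, 5.03, 5.13 and 5.31 in +Tx cells, and 5.19, 5.25 and 5.19 in −Tx cells. These groups overlapped, with a difference of -0.03 between KO/Y and −Tx, and a second probe gave -0.37. Col7a1, the anchoring fibril collagen of skin, was higher in +Tx than in −Tx cells by 0.64 (adjusted p = 0.000318) and lower in KO/Y than in +Tx cells by 0.22 (adjusted p = 0.0382).

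Markers of other cell types moved with these groups. Of 18 tested markers of primitive, visceral and parietal endoderm, 13 were above background on all 9 arrays. The others could enter through 1 group where they were high. In KO/Y against −Tx cells 14 of the 18 were called higher, beside 4.72% of all genes, with a median of 2.29. In KO/Y against +Tx cells 13 were called higher, beside 2.37%, with a median of 2.06. For +Tx against −Tx cells 1 was called higher, beside 1.75%, and 1 lower, beside 0.758%. None of these markers is a member. Their summed linear level ran from 44.4 to 50.9 in KO/Y cells, 21.7 to 25 in +Tx cells and 15.8 to 16.5 in −Tx cells. Gata4 and Gata6, transcription factors of the primitive endoderm, rose 5.32-fold and 5.82-fold, and Sox17 at least 5.33-fold from below background, while the visceral endoderm genes Apoa1 and Afp were not above background on any array. Lama1, Col4a1 and Col4a2 had their highest levels in the KO/Y group too. So did other members, among them Lamb3, Lamb1, Col1a2, Col3a1 and Col6a2, and the sum of the fibroblast markers described below. The part of endoderm cells in the values of these genes was not tested.

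**Figure D3:**
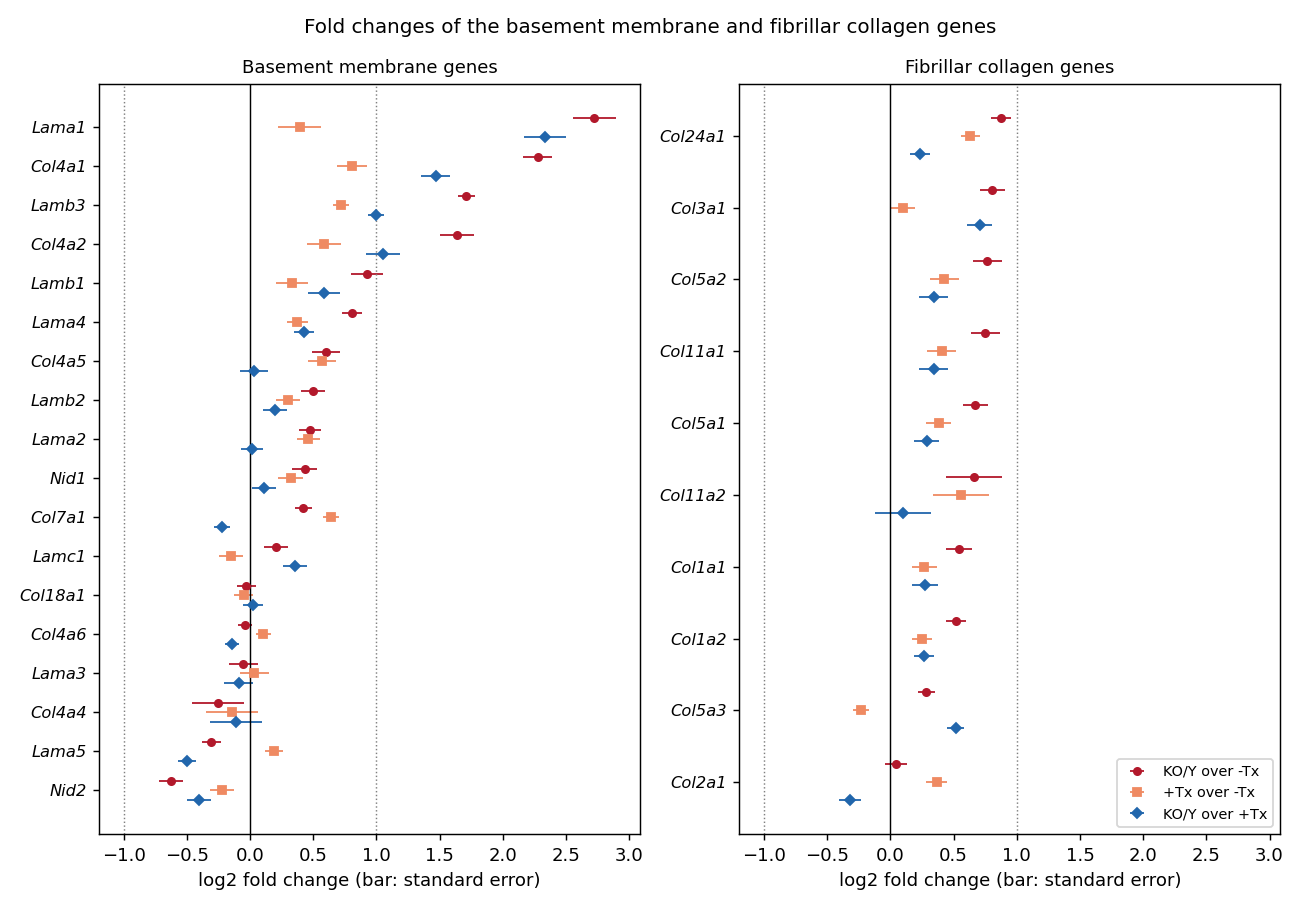
Each basement membrane gene (left, all tested ones but 1) and fibrillar collagen gene (right) has a log2 fold change with its standard error for KO/Y over −Tx, +Tx over −Tx and KO/Y over +Tx, and dotted lines mark 2-fold. The basement membrane genes span from -0.63 (Nid2) to 2.72 (Lama1) for KO/Y over −Tx, whereas the fibrillar genes stay between 0.04 (Col2a1) and 0.87 (Col24a1).

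The fibrillar collagens spanned a narrower range than the basement membrane genes for KO/Y over −Tx, 0.04 to 0.87 against -0.63 to 2.72. The fibrillar median was the higher, 0.67 against 0.47. Of 11 fibrillar genes 10 were tested, all of them above background on every array. In any comparison limma called 0 of them, as did the NIA-like variance. Of all genes 4.72%, 1.75% and 2.37% were called higher in KO/Y over −Tx, +Tx over −Tx and KO/Y over +Tx. Called lower were 2.84%, 0.758% and 1.05%, so that 0 of 10 is near the shares of all genes. At an unadjusted p under 0.05, 9 were higher in KO/Y than in −Tx cells, beside 22.9% of all genes. In +Tx against −Tx cells 8 were higher, beside 16.4%, and 1 lower, beside 22.8%, and in KO/Y against +Tx cells 8 were higher, beside 17.8%, and 1 lower, beside 20%. The 9 that were higher in KO/Y than in −Tx cells also passed the adjusted p, and 2 of them, Col3a1 and Col24a1, did so with slide as a term. Col1a1 and Col1a2, the chains of type I collagen, were bright: Col1a1 was at 6.48, 6.26 and 6.33 in KO/Y cells, 5.96, 6.06 and 6.22 in +Tx cells, and 5.65, 5.88 and 5.90 in −Tx cells. It was higher in KO/Y than in −Tx cells by 0.55 (adjusted p = 0.00225), and no 2 groups overlapped, while with slide as a term the value was 0.36 (adjusted p = 0.195). Col1a2 was at 7.64, 7.33 and 7.49 in KO/Y cells, 7.20, 7.20 and 7.24 in +Tx cells, and 6.96, 6.98 and 6.95 in −Tx cells, higher in KO/Y than in −Tx cells by 0.52 (adjusted p = 0.000779, and 0.0536 with slide as a term).

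Col3a1, the type III chain of reticular fibres, was at 4.37, 4.15 and 4.31 in KO/Y cells, 3.56, 3.46 and 3.69 in +Tx cells, and 3.32, 3.51 and 3.58 in −Tx cells. Its KO/Y arrays lay above the rest, and +Tx and −Tx overlapped. The values were 0.81 for KO/Y over −Tx (adjusted p = 0.000204), 0.71 for KO/Y over +Tx (adjusted p = 0.0011) and 0.10 for +Tx over −Tx (adjusted p = 0.472). Col5a1 and Col5a2, whose chains start type I fibrils, were higher in +Tx than in −Tx cells, by 0.38 (adjusted p = 0.0229) and 0.43 (adjusted p = 0.0264), and higher in KO/Y than in −Tx cells by 0.67 and 0.77. Neither passed the adjusted p with slide as a term, where Col5a1 was at 0.31 for +Tx over −Tx (adjusted p = 0.226) and 0.56 for KO/Y over −Tx (adjusted p = 0.069), and Col5a2 at 0.32 (adjusted p = 0.267) and 0.60 (adjusted p = 0.0784). The KO/Y levels were 3.78, 3.46 and 3.55 for Col5a1, against 2.96, 2.93 and 2.89 in −Tx cells, and -0.65, -0.68 and -0.53 for Col5a2, against -1.5, -1.36 and -1.31 in −Tx cells. Col11a1 and Col24a1 were higher in KO/Y than in −Tx cells by 0.75 and 0.87, Col11a2 by 0.66 (adjusted p = 0.0369) and Col5a3 by 0.29, while the cartilage collagen Col2a1 was at 0.04 (adjusted p = 0.716). Col27a1 could not be tested.

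**Figure D4:**
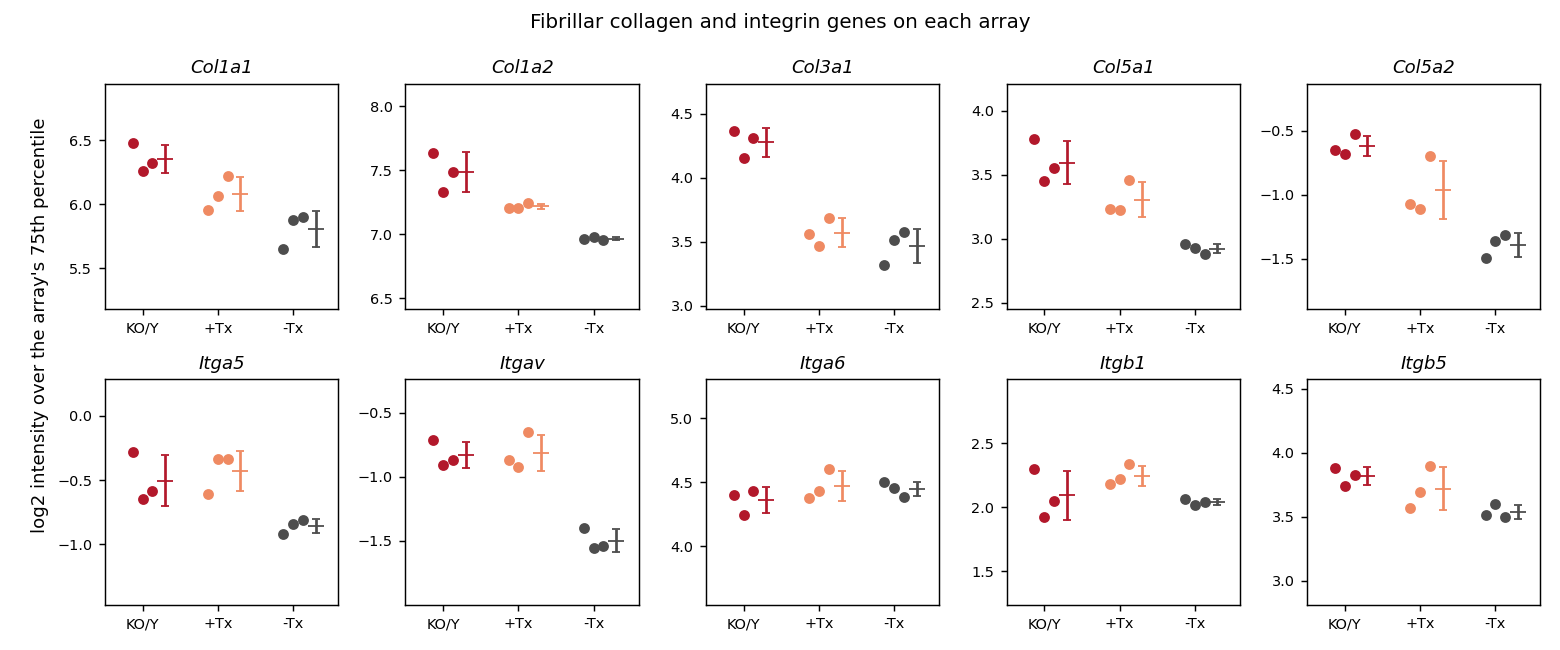
Points are single arrays, KO/Y, +Tx and −Tx from left to right, with the mean and SD of 3 arrays, on the log2 scale over the 75th percentile of the array, each gene with its own range. The KO/Y arrays of Col1a1, Col1a2 and Col3a1 lie above those of −Tx by 0.52 to 0.81 on average, Itgav is higher in KO/Y and +Tx alike, Itga6 overlaps across all groups, and in Itgb1 the +Tx arrays lie above −Tx while KO/Y overlaps both.

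Set side by side for KO/Y over −Tx, 12 of 19 tested basement membrane genes were higher and 2 lower at the adjusted p, with a median of 0.47, and 9 of 10 tested fibrillar genes were higher and 0 lower, with a median of 0.67, against -0.06 over all genes. Of all genes 20.5% were higher and 26.4% lower at the adjusted p. For +Tx over −Tx the medians were 0.32 and 0.38, and for KO/Y over +Tx 0.11 and 0.28. The fibrillar median was the higher of the 2, and the called genes lay in the upper tail of a wide basement membrane spread. Across arrays the basement membrane median relative to −Tx was 0.59, 0.32 and 0.50 in KO/Y cells and 0.23, 0.19 and 0.48 in +Tx cells. The fibrillar median was 0.71, 0.61 and 0.66 in KO/Y cells and 0.31, 0.29 and 0.49 in +Tx cells. No test was made of the medians, which are descriptions of small lists.

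**Figure D5:**
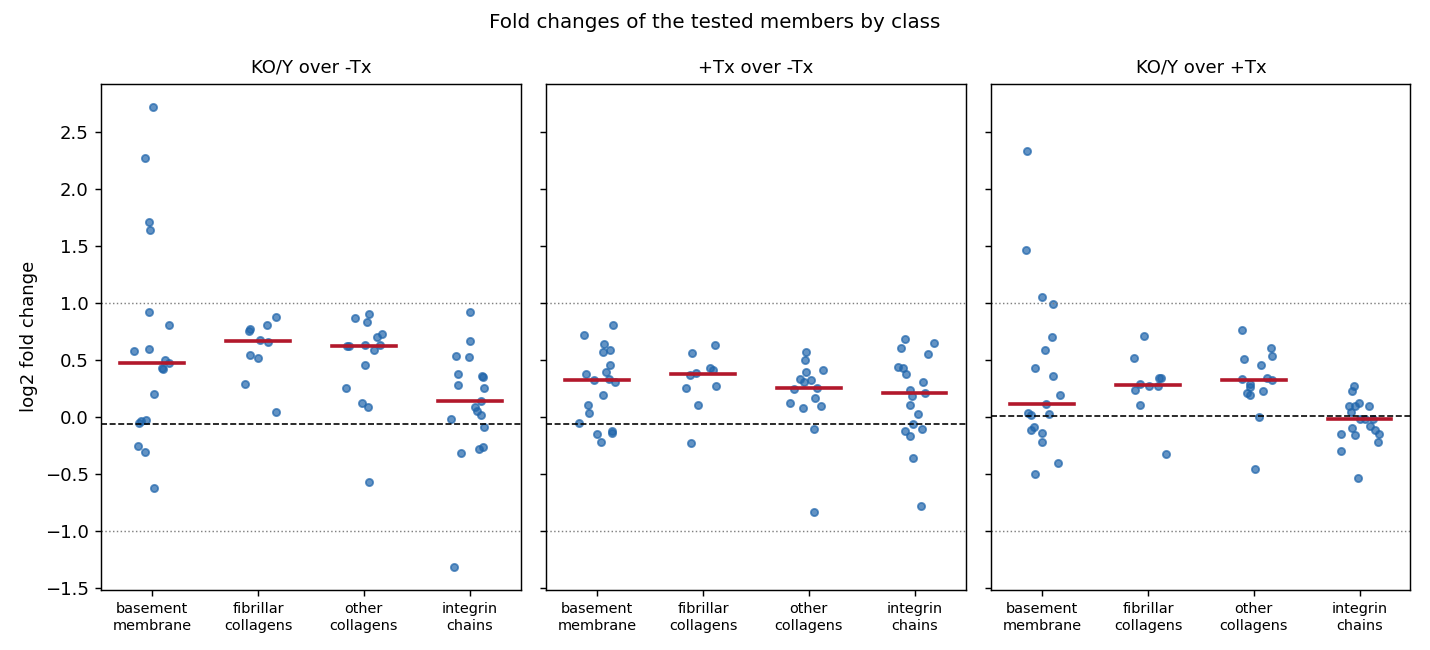
Each point is a tested member, red bars are class medians, the dashed line is the median of all 22441 genes and dotted lines mark 2-fold, with a panel for each comparison. In KO/Y over −Tx the basement membrane genes have a median of 0.47 and 4 points above 2-fold, while the fibrillar and other collagens cluster around 0.67 and 0.62 without crossing it, and the integrin chains lie around 0.14.

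The 20 fibroblast markers were all above background on all 9 arrays. Each was higher in KO/Y than in −Tx cells at the adjusted p, beside 20.5% of all genes, with a median of 0.59. Called higher was 1 of them, Lum, beside 4.72%. In +Tx against −Tx cells 16 were higher, beside 11.9%, with a median of 0.37. The summed level of the 20 ran from 689 to 728 in KO/Y cells, 635 to 668 in +Tx cells and 498 to 527 in −Tx cells. For KO/Y against +Tx cells 8 were higher, beside 12.1%, with a median of 0.19. These counts are without slide as a term. In KO/Y over −Tx, +Tx over −Tx and KO/Y over +Tx, the medians of the fibrillar collagens were 0.67, 0.38 and 0.28. Those of the basement membrane genes were 0.47, 0.32 and 0.11. Of these 20 markers 5 also stand in the lists of matrix partners described after them. The part of feeder cells in the values of either class was not tested. Of 10 ES cell markers 1 was higher in KO/Y than in −Tx cells at the adjusted p, beside 20.5% of all genes, and 5 lower, beside 26.4%. The 10 summed to 574 to 694 in KO/Y cells, 693 to 742 in +Tx cells and 739 to 778 in −Tx cells. Of 6 endothelial markers 2 could be tested, at -0.15 and 0.20 for KO/Y over −Tx, and Emcn and Tie1 were not above background on any array. Of 6 tested trophectoderm markers 3 were above background on all 9 arrays, and the others could enter through 1 group where they were high. In KO/Y against −Tx cells 3 of the 6 were called higher, beside 4.72% of all genes, and all 6 were higher at the adjusted p, beside 20.5%. The summed level of these markers ran from 2.75 to 3.05 in KO/Y cells, 1.34 to 1.57 in +Tx cells and 0.905 to 0.926 in −Tx cells. Their part in the values of the members was not tested.

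Among the remaining collagens 15 of 23 genes were tested and 0 called by limma or with the NIA-like variance in any comparison. Of all genes limma called at most 4.72% higher and at most 2.84% lower in a comparison, so that 0 of 15 is near these shares. For KO/Y against −Tx 10 were higher, beside 20.5% of all genes, and 1 lower, beside 26.4%, at the adjusted p alone. At an unadjusted p under 0.05 they were 11 higher, beside 22.9%, and 1 lower, beside 30.1%. The type VI chains, which form the beaded filaments around cells, had like values in KO/Y cells: Col6a1, Col6a2 and Col6a3 were higher than in −Tx cells by 0.70, 0.84 and 0.87, and higher than in +Tx cells by 0.60, 0.76 and 0.54. For +Tx against −Tx cells the values were 0.10, 0.08 and 0.33, of which that of Col6a3 passed the adjusted p (0.0454). The FACIT collagens, which decorate fibrils, had 7 tested genes and 5 higher at the adjusted p in KO/Y against −Tx cells, among them Col16a1 by 0.62, Col12a1 by 0.73 and Col9a2 by 0.63. Col20a1 was the closest of these to a call, at 0.91 (adjusted p = 2.26e-05) on its brighter probe and 1.05 on its dimmer one, which passed 2-fold when every probe was tested on its own. The collagen with the lowest value was Col8a2, at -0.57 for KO/Y and -0.83 for +Tx against −Tx cells, near background in the +Tx cells, where 2 of 3 arrays measured it.

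Of 26 integrin chains 19 were tested. Itgb7 (probe at chr15:102046450-102046509, mm9), the beta7 chain that pairs with alpha4 or alphaE on leukocytes, was the only called one. It was at 0.82, 0.94 and 0.98 in KO/Y cells, 1.44, 1.44 and 1.47 in +Tx cells, and 2.26, 2.18 and 2.25 in −Tx cells, lowest in KO/Y and without overlap between groups. It fell 2.49-fold in KO/Y against −Tx cells (-1.32 ± 0.06, adjusted p = 1.14e-06), and its values were -0.78 for +Tx against −Tx cells (adjusted p = 8.09e-05) and -0.54 for KO/Y against +Tx cells (adjusted p = 0.00048). Of its alpha partners, Itga4 was at 0.53 for KO/Y against −Tx (adjusted p = 0.00852) and Itgae was not above background on any array.

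None of the chains that bind laminin was called. Itga6, the main laminin receptor chain of ES cells, was at 4.4, 4.25 and 4.43 in KO/Y cells, 4.38, 4.43 and 4.60 in +Tx cells, and 4.50, 4.45 and 4.39 in −Tx cells, with a difference of -0.09 for KO/Y over −Tx (adjusted p = 0.426). A second, dimmer probe of Itga6 gave 0.30 (adjusted p over probes 0.0106). Itgb1, its beta partner, was at 2.3, 1.93 and 2.05 in KO/Y cells, 2.18, 2.22 and 2.33 in +Tx cells, and 2.06, 2.01 and 2.04 in −Tx cells, a difference of 0.05 (adjusted p = 0.694). Itga3 was dim, at -2.71, -2.53 and -2.62 in KO/Y cells and -2.25, -2.47 and -2.35 in −Tx cells, lower by 0.26 (adjusted p = 0.0459). Itga7 was higher in +Tx than in −Tx cells by 0.55 (adjusted p = 0.00121) and lower in KO/Y than in +Tx cells by 0.30 (adjusted p = 0.0175).

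Receptors for fibronectin and vitronectin recognise the RGD peptide. Of their alpha chains, 3 of 3 tested were higher in +Tx than in −Tx cells at the adjusted p, beside 11.9% of all genes. With slide as a term 1 of them (Itgav) was higher, beside 4.75%. Itgav was at -0.71, -0.91 and -0.87 in KO/Y cells, -0.87, -0.92 and -0.65 in +Tx cells, and -1.40, -1.56 and -1.54 in −Tx cells, so that KO/Y and +Tx overlapped and both lay above −Tx. Its values were 0.67 for KO/Y over −Tx (adjusted p = 0.00046), 0.68 for +Tx over −Tx (adjusted p = 0.00128) and -0.02 for KO/Y over +Tx. Its beta partner Itgb3 was higher in +Tx than in −Tx cells by 0.60 (adjusted p = 0.00442), and Itga8 by 0.65 (adjusted p = 0.00437). Itga5, the fibronectin receptor chain, was at -0.28, -0.65 and -0.59 in KO/Y cells, -0.61, -0.33 and -0.34 in +Tx cells, and -0.92, -0.84 and -0.81 in −Tx cells, higher by 0.35 in KO/Y (adjusted p = 0.0316) and by 0.43 in +Tx cells (adjusted p = 0.0249). Itgb5 was higher by 0.28 in KO/Y than in −Tx cells (adjusted p = 0.0313), at 3.88, 3.74 and 3.83 in KO/Y cells against 3.52, 3.60 and 3.50 in −Tx cells. With slide as a term the KO/Y over −Tx values were 0.08 for Itga5 (adjusted p = 0.805) and 0.05 for Itgb5 (adjusted p = 0.84), and Itga5 was at 0.25 for +Tx over −Tx (adjusted p = 0.319). Collagen-binding chains were at -0.28 (Itga1), 0.36 (Itga11) and 0.54 (Itga10) for KO/Y over −Tx, and Itga2 was not above background. Between KO/Y and +Tx cells 0 integrin chains were higher at the adjusted p, beside 12.1% of all genes. Lower were 2 of the 19 tested (Itga7 and Itgb7), beside 14.1%, and the median was -0.02.

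The name rule also took 6 genes that are not integrin chains, of which 3 were tested. Itgbl1, a secreted protein with integrin-like repeats, was higher in KO/Y and in +Tx than in −Tx cells, by 0.88 (adjusted p = 0.00023) and 0.92 (adjusted p = 0.000632), and leaving out −Tx array 2 moved the +Tx value just past 2-fold. Itgb3bp, also known as the kinetochore protein CENP-R, was lower in KO/Y than in −Tx cells by 0.87 (adjusted p = 3.7e-05). Itgb1bp1 was at 0.28 (adjusted p = 0.0102).

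The 22 genes that could not be tested were 3 of the basement membrane (Col4a3, Col15a1 and Lamc3), 1 fibrillar collagen (Col27a1), 8 other collagens (Col6a4, Col6a5, Col6a6, Col9a3, Col13a1, Col17a1, Col19a1 and Col28a1), 7 integrin chains (Itga2, Itga2b, Itgad, Itgae, Itgax, Itgb6 and Itgb8) and 3 others (Itgb1bp2, Itgb1bp3 and Itgb2l). Of these, 18 were not well above background on any array. Among the 66 tested, 19 had more than 1 probe above the filter, and for 16 of them the probes agreed within 0.5 on the log2 scale for KO/Y over −Tx. The exceptions were Lama3, Itgam (-0.51 to 0.09) and Itga1 (-0.28 to 0.24).

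Other genes of matrix assembly were counted in 5 lists. For KO/Y against −Tx cells, 20.5% of all genes were higher and 26.4% lower at the adjusted p, and 4.72% were called higher. The list counts at the adjusted p are without slide as a term. Of 13 tested basement membrane partners, 8 were higher and 2 lower at the adjusted p in KO/Y against −Tx cells and 1, Frem1, was called. Frem1, a matrix protein of the embryonic epidermal basement membrane, was above background on all 3 KO/Y arrays and on no −Tx array. It could thus enter the test through a group where it was high. It was at least 1.98-fold higher (adjusted p = 0.00711), a bound under 2-fold. With only probes above background on all arrays it was not called. The perlecan gene Hspg2 was at 0.39, Sparc at 0.50 and the agrin gene Agrn at -0.03, while Bcam, a laminin alpha5 receptor, was at -0.88 and Frem2, which acts with Frem1, at -0.89 (adjusted p = 0.000228). Of 25 genes of collagen synthesis and cross-linking, 19 were higher and 1 lower at the adjusted p, and P4ha2, a prolyl 4-hydroxylase subunit, rose 2.52-fold (1.33 ± 0.07, adjusted p = 1.93e-06). Of 15 turnover genes 11 were higher, and Mmp3, stromelysin, rose 2.59-fold (adjusted p = 2.39e-06), while Plau, urokinase, rose 2.07-fold in +Tx against −Tx cells (adjusted p = 0.000139).

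Of 17 interstitial matrix partners 16 were higher at the adjusted p in KO/Y against −Tx cells, beside 20.5% of all genes, with a median of 0.63. In the same comparison 2 small proteoglycans that coat collagen fibrils rose, Fmod 2.22-fold (adjusted p = 0.000221) and Lum 2.17-fold (adjusted p = 2.37e-05). With slide as a term, P4ha2 and Mmp3 remained called and Fmod, Lum and Frem1 did not, so that 2 of the 5 calls were left. The integrin adhesion machinery had 0 called genes of 16 in any comparison by limma or with the NIA-like variance. Of all genes limma called at most 4.72% higher and 2.84% lower, to which 0 of 16 is near. For KO/Y over −Tx its median was 0.16, with 5 higher and 1 lower at the adjusted p, beside 20.5% and 26.4% of all genes. At an unadjusted p under 0.05, 6 were higher, beside 22.9%, and 1 lower, beside 30.1%.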

How the data were processed

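Total RNA of ES cells was hybridised to 9 single-colour Agilent arrays, 3 for each of the 3 groups. The study describes biological triplicates, but which array is which replicate is not stated, so p-values measure the spread between these arrays. Per the file headers, the authors deposited processed intensity values from Agilent Feature Extraction 10.7.3.1, linear and background-subtracted, with probe coordinates on mm9. The authors also deposited group signals (linear intensity), which equalled the geometric mean of the 3 arrays up to a scale. These served only as an alternative for fold changes. The settings of the NIA Array Analysis Software named in the study are not stated.

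Values were analysed in R 4.3.3 with the data.table package (1.17.8). Each log2 intensity was expressed relative to the 75th percentile of its array, after dropping outlier spots (117 to 178 per array). No array had saturated spots (0). Replicate spots were averaged per probe. A probe entered if the scanner software called it well above background in all 3 arrays of any group, and a gene was represented by its brightest such probe, giving 22441 genes. All 9 arrays were fitted together in limma 3.58.1 (lmFit, eBayes), with Benjamini-Hochberg adjustment over these genes. Calls required more than 2-fold and an adjusted p below 0.05. Fold bounds for genes under background set the dim group at the detection limit of its arrays. Having 3 arrays per group limits precision. The fit was tested on simulated data.

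Members, classes and lists were chosen with earlier results of these data known. The genes named were 21 fixed members, called members without overlap between groups, up to 4 called genes of each partner list, and further genes picked after their values were seen. Of the tested members, 1 is counted but not reported here. Alternatives varied background correction, scaling, filters, slide, variance, the probe of a gene and the arrays included.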

Additional observations from a re-analysis of the deposited data

How the results depend on the processing

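The calls of Lama1, Col4a1, Col4a2 and Itgb7 in KO/Y over −Tx held under each alternative that could make them, and that of Lamb3 under each but normexp (0.78). The arrays of 1 slide could not, since KO/Y and −Tx share no slide. The authors' group values gave fold changes only. Without a filter on dim probes, 1 member was called higher and 1 lower in +Tx over −Tx (Col6a4 and Col6a5, otherwise not tested) and 2 lower in KO/Y over −Tx; at the adjusted p alone, 18 were higher in +Tx over −Tx and 4 lower in KO/Y over +Tx. With slide as a term, 17 members were higher and 3 lower at the adjusted p in KO/Y over −Tx, and 9 higher and 2 lower in +Tx over −Tx. On the arrays of 1 slide there were 6 higher and 1 lower in +Tx over −Tx, and 11 and 2 in KO/Y over +Tx. With the variance set as the NIA software can, there were 6 higher and 2 lower in +Tx over −Tx, 10 and 2 in KO/Y over +Tx, and 4 lower in KO/Y over −Tx. The fibrillar median was 0.274 in +Tx over −Tx and 0.526 in KO/Y over −Tx under normexp, and 0.578 in KO/Y over −Tx with slide. Partner genes called higher were 0 in +Tx over −Tx and 3 in KO/Y over −Tx under normexp, 2 in KO/Y over −Tx with slide, and 1 in KO/Y over +Tx (Frem1) with slide or on 1 slide. The causes were not tested.

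Leaving out 1 array at a time gave 0 to 1 members called higher in +Tx over −Tx (1, Itgbl1, without −Tx array 2). At the adjusted p it gave 16 to 32 higher (16 without −Tx array 3, 18 without −Tx array 1) and 3 to 5 lower (3 without −Tx array 3 or +Tx array 1) in +Tx over −Tx, and 4 to 7 lower in KO/Y over −Tx (4 without −Tx array 3 or KO/Y array 3). Partner genes called ranged over 0 to 1 higher in +Tx over −Tx (0 without −Tx array 1), 0 to 1 higher in KO/Y over +Tx (Frem1, without +Tx array 1 or 3), 0 to 1 lower in +Tx over −Tx (Frem2, without +Tx array 2) and 0 to 1 lower in KO/Y over −Tx (Bcam, without −Tx array 3). The fibrillar median ranged over 0.3 to 0.41 in +Tx over −Tx and 0.259 to 0.356 in KO/Y over +Tx. No paired analysis was possible because nothing ties an array to a replicate number. Dim probes near background have the least reliable differences.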
